A study of Danio rerio with 11 samples.

Results

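The 7 genes described here handle vitamin A and its carotenoid precursors in the gastrointestinal tract (GIT) of zebrafish. They were chosen by symbol (stra6, bco1, bco1l, rbp2a, rbp2b, dhrs3a and aldh1a2), and all 7 were found among the 19071 genes that the 3 deposited tables share. Each table gives, for every gene, the mean of its normalized counts over all libraries of 1 fit, and these pooled means are the only values used, so that no level per sample, no error between fish and no difference between groups is given. The fish were of the AB strain and were compared as 18.5-mel, the torpor group, in water of 18.5 °C that held melatonin at 24 µM (2 samples by the labels), a radiation group at 28.5 °C with 32.64 cGy of gamma rays (28.5-rad, 3), a torpor + radiation group with all 3 treatments (18.5-mel-rad, 4) and a control group at 28.5 °C with neither melatonin nor radiation (28.5-Ctrl, 2). The dose is that of the paper's overview of groups. It was split over 2 exposures, and the paper's methods print a slightly higher total. The tables are named below by the treated group whose comparison with 28.5-Ctrl they hold.

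Vertebrates cannot make vitamin A and take it up in the gut, either as retinyl esters or as carotenoids such as β-carotene. In the enterocyte a carotenoid is cleaved to retinal, retinal is reduced to retinol, and retinol is carried by a cellular binding protein to the enzymes that esterify it for export with lipids. A small part of the retinal is oxidised to retinoic acid, the ligand of the RAR nuclear receptors.

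Which libraries stand behind each mean was read from the rarest genes. A gene with 1 read in 1 library has a mean equal to what 1 read of that library adds, and such values recur in many genes as fixed steps. There were 12 steps in the 28.5-rad table, 13 steps in that of 18.5-mel and 11 steps in that of 18.5-mel-rad, while the labels name 11 samples. Of the 12 libraries of the 28.5-rad table, 11 were also in the 18.5-mel table and 11 in the 18.5-mel-rad table, so the pooled means rest largely on the same libraries and are not independent. Of the 42 genes with 1 read in the library absent from the 18.5-mel table, 34 were at 0 there, not all. Shared libraries also kept their step for only part of such genes, as in 39 of 51 for the library of lowest step. The 18.5-mel table held 2 libraries found in neither other table, where 1 read added 0.340 and 1.20 normalized counts, against 0.0294 to 0.0932 for the 11 others. No table states which library is which sample. The 12 libraries of the 28.5-rad table alone outnumber the 11 labelled samples. The group sizes by the labels are therefore not the numbers of libraries behind the means. The paper's overview gives more samples for every group than the labels do. It also lists 2 groups that the labels do not name, melatonin alone at 28.5 °C and 18.5 °C without melatonin. Whether fish of those groups are among the pooled libraries is not stated.

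In the 18.5-mel-rad table, 1 library of the 28.5-rad table was absent and another weighed more. All 26 genes with 1 read in the absent library were at 0 in the 18.5-mel-rad table. Between these tables the step of 10 libraries grew by a factor of 1.05, whereas that of the heavier library grew by 2.097. This held for all 75 genes with 1 read in it, and 0 genes were at the step that a plain weight would give. The pooled means of the 18.5-mel-rad table are thus not those of an equal weight for every library.

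**Figure D1:**
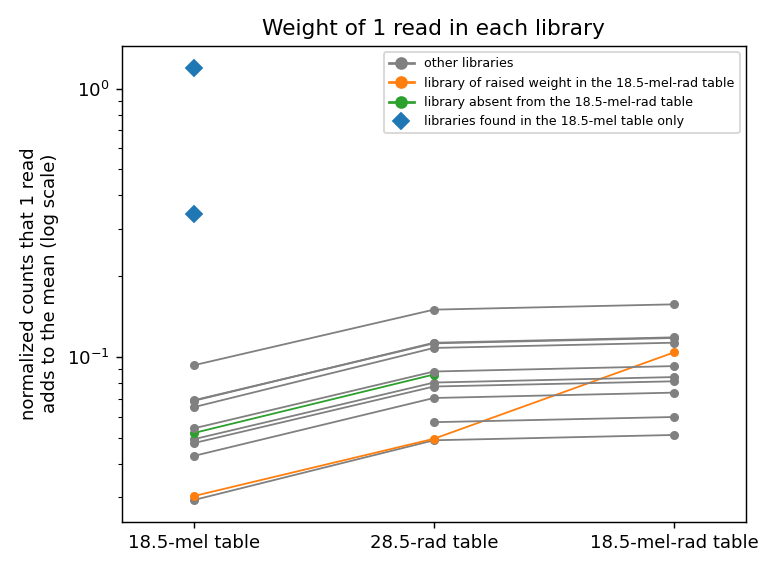
Normalized counts that 1 read adds to the mean (log axis) for each library of the 3 tables, with lines joining the same library. The 2 libraries found in the 18.5-mel table only lie at 0.340 and 1.20, above all others, and 1 line rises by a factor of 2.097 between the tables of the irradiated groups.

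Stra6, the membrane receptor that takes up retinol from its plasma carrier Rbp4, had a pooled mean of 121 normalized counts in the 18.5-mel table, against 198 for the 28.5-rad table and 206 for that of 18.5-mel-rad. The value of the 28.5-rad table corresponds to between 1322 and 4049 reads in all, depending on the libraries they came from. Bco1, which cleaves β-carotene to retinal, had pooled means of 1579, 2764 and 2885 normalized counts in the same order of tables. Its paralog bco1l had 1075, 1777 and 1855. The genes are next to each other in the RefSeq annotation of GRCz12tu, which was used for names and neighbours only. How reads that match both paralogs were counted is not given in the sources used here.

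Rbp2a, the cellular retinol-binding protein of enterocytes, had pooled means of 2046 (18.5-mel), 3048 (28.5-rad) and 3187 (18.5-mel-rad) normalized counts. Its span overlaps that of brwd1 in GRCz12tu. The spans of stra6 and dhrs3a each overlap that of a long non-coding RNA gene, and the strand setting of the counting is not given in the sources used here. The second copy, rbp2b, had 17.4, 28.1 and 21.2 normalized counts. Dhrs3a, a reductase that returns retinal to retinol, had 2.68, 4.61 and 4.87 normalized counts, the 28.5-rad value standing for between 31 and 94 reads over all libraries. Aldh1a2, the dehydrogenase that makes retinoic acid from retinal, had 138, 190 and 196. Of the 7 genes, 6 had at least 10 normalized counts in every table, and dhrs3a had not. These means were not divided by transcript length, so the genes are not ranked against each other.

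**Figure D2:**
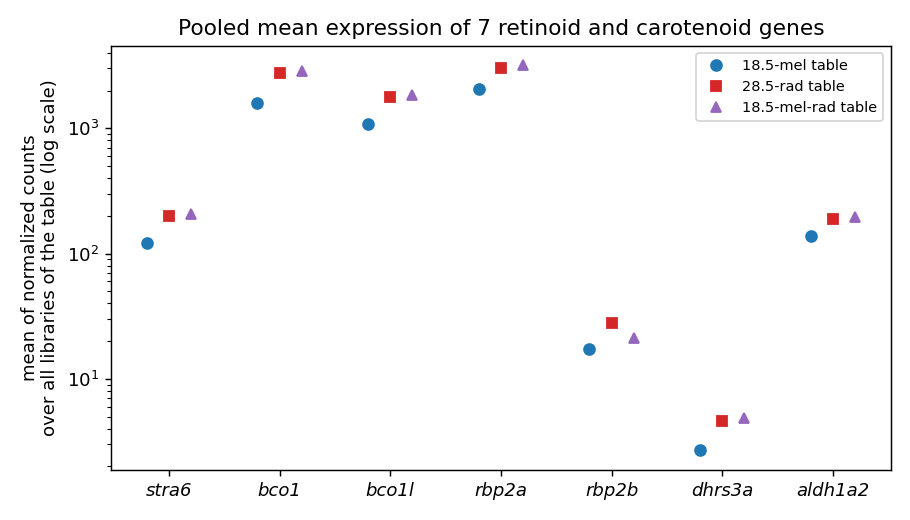
Mean of normalized counts over all libraries of the table (log axis) for each of the 7 genes in the 3 tables, 1 point per gene and table and no error bars, since the tables hold no value per sample. For 6 genes the points of the 18.5-mel-rad table and of the 28.5-rad table nearly coincide, and for rbp2b they lie at 21.2 (18.5-mel-rad table) and 28.1 (28.5-rad table).

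To see how far the libraries that differ between the tables moved each gene, the ratio of its pooled means was set against all genes with at least 10 normalized counts in both tables. For the 18.5-mel over the 28.5-rad table the median ratio of 11338 genes was 0.640, the tables having been normalized separately, and the ratio of the 11 shared libraries' steps ran from 0.599 to 0.621. A gene with a ratio above 0.621 must have had reads in the 2 libraries found in the 18.5-mel table only, if the shared libraries were counted alike. A gene below 0.599 must have had reads in the library that this table lacks. This ratio is no contrast between groups, since both means pool libraries of several groups.

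Aldh1a2 had a ratio of 0.728, above that of 77.8% of genes. If the shared libraries were counted alike, at least 14.8% of its mean in the 18.5-mel table came from the 2 libraries. At the larger step this least share can stand for as few as 18 reads. By number the 2 libraries are 15.4% of the 13, but 14.8% is a floor, so the true share may be larger. Rbp2a had a ratio of 0.672, above that of 64.0% of genes. On the same condition at least 7.55% of its mean came from the same libraries, or 130 reads or more. Above the upper bound of 0.621 lay 2 of the 6 genes with at least 10 normalized counts in both tables, against 62.6% of all genes so filtered.

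The 4 other members with at least 10 normalized counts lay below the median of all genes. For bco1 the ratio was 0.571, lower than in all but 6.21% of genes. If the shared libraries were counted alike, at least 4.61% of its mean in the 28.5-rad table came from the library absent from the 18.5-mel table. By number 1 library of 12 is 8.33%, but 4.61% is a floor, so the true share may be larger. Bco1l stood at 0.605, stra6 at 0.611 and rbp2b at 0.619, all within the range of the shared libraries' steps. These ratios alone do not set a least share for the 2 added libraries. Dhrs3a, with pooled means of 2.68 and 4.61 normalized counts, was too low for its ratio to be read. Of the 6 genes with at least 10 normalized counts in both tables, 1 (bco1) lay below 0.599, against 21.5% of all genes so filtered.

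For the 18.5-mel-rad over the 28.5-rad table the median ratio of 12135 genes was 1.05, with the 25th and 75th percentiles at 1.03 and 1.06. Of the 7 genes, 6 lay in the same range, between 1.03 and 1.06. These 6 include dhrs3a, which was below the limit of 10 normalized counts, so its ratio of 1.06 is not to be read. Rbp2b had a ratio of 0.753, with 39 of the 12135 genes lower. It was not the only low gene of the pathway. Ces3, a listed gene of esterification and hydrolysis that is not a member, had 0.782, above that of 0.511% of genes. The listed ttr and rbp4 had 0.828 and 0.944. The absent library had contributed at least 28.0% of the pooled mean of rbp2b in the 28.5-rad table. For the other 6 members, dhrs3a included, the contribution of the absent library exceeded that of the heavier one by at most 1.37% of the mean, which was the value of aldh1a2.

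Markers of liver moved with rbp2b between these tables. All 6 listed liver genes (fabp10a, tfa, fetub, ttr, rbp4 and serpina1) had ratios below the median, from 0.828 for ttr to 0.944 for rbp4, none above those of 2.43% of genes. The absent library exceeded the heavier one in them by 9.70% to 21.1% of the mean. Ttr and rbp4 are also on the list of retinoid genes by role, so the lists overlap. The 9 enterocyte markers measured lay between 1.02 and 1.06, with 4 below the median. The 7 exocrine pancreas markers lay between 1.03 and 1.05, with 6 below it. In the 18.5-mel over the 28.5-rad table the 6 liver genes were more scattered, from 0.587 to 0.884, and rbp2b stood at 0.619. The summed level of the 6 liver genes was 13994 normalized counts in the 18.5-mel-rad table and 15584 in the 28.5-rad table. Their part in the value of rbp2b was not tested. The 2 tables share 11 libraries, so the gap in the liver markers is no difference between groups. In bulk tissue, a library with more cells of a type and one with more RNA per cell cannot be told apart.

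**Figure D3:**
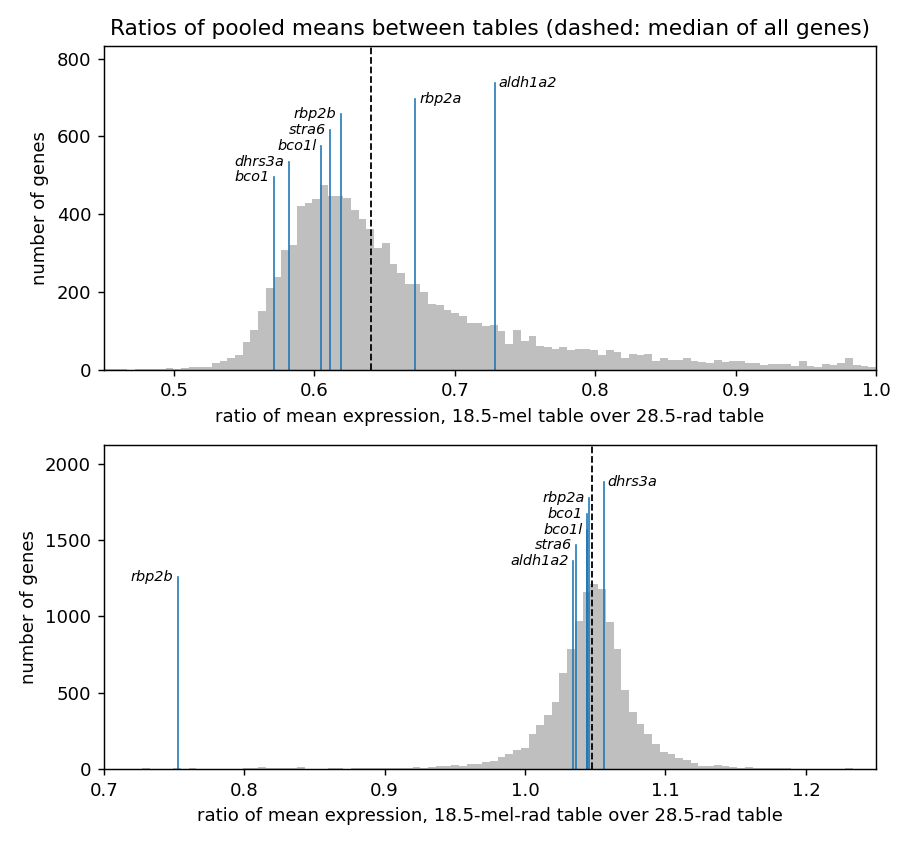
Number of genes by the ratio of their pooled means, for the 18.5-mel over the 28.5-rad table (upper panel, 815 genes outside the axis) and the 18.5-mel-rad over the 28.5-rad table (lower panel, 27 genes outside), with the 7 genes as lines of arbitrary height and the median of all genes dashed. Aldh1a2 (0.728) and rbp2a (0.672) lie right of the median in the upper panel, and rbp2b (0.753) lies apart from all other members in the lower one.

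Other genes of the pathway were taken from a list by role. Of 56 listed genes that are not members, 52 were in the tables and 32 had at least 10 normalized counts in both tables of the first ratio. Of these 32, 7 lay above the all-gene median ratio of 0.640 and 25 below it, and their own median was 0.617. Against the bounds of the shared libraries' steps, 13 of the 32 lay above 0.621 and 10 below 0.599. The shares over all genes so filtered were 62.6% and 21.5%. The uptake genes were all below 0.640, including cd36, a fatty acid and carotenoid transporter, at 0.539 (lower than all but 0.776% of genes), scarb1, the carotenoid and cholesterol receptor, at 0.562 and stra6l, a paralog of stra6, at 0.582. Also below 0.640 were the carotenoid-cleaving bco2a, with pooled means of 517 normalized counts in the 18.5-mel table and 916 in the 28.5-rad table and a ratio of 0.565, and bco2l, at 0.627. Of 9 enterocyte markers, 6 were also below 0.640, and the 9 had ratios from 0.561 to 0.721. Among these markers cdx1b is also on the list by role. The part of the enterocyte markers in the ratios of the retinoid genes was not tested.

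Of the 5 genes with the highest pooled means of that list, rbp4 had a ratio of 0.587, dgat1a, which esterifies retinol and diacylglycerol, one of 0.635 and dhrs9, a retinol dehydrogenase, one of 0.609. The others were cd36 and scarb1. The paralog of dhrs3a, dhrs3b, had pooled means of 75.9 normalized counts in the 18.5-mel table and 126 in the 28.5-rad table, with a ratio of 0.603. For rbp5, another cellular retinol-binding protein, the ratio was 0.622. Aldh1a3, another listed retinal dehydrogenase, had a pooled mean of 0.227 in the 18.5-mel table and 0.431 in the 28.5-rad table. Bco2b had 2.52 and 1.73, and both genes were too low for a ratio to be read. Aldh8a1, also listed as a retinal dehydrogenase, had 90.7 and 143, with a ratio of 0.634. Rbp7b had 9.79 and 9.23, and rbp7a was at 0 in all tables.

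The retinoic acid hydroxylases cyp26a1, cyp26b1 and cyp26c1, which degrade retinoic acid, had pooled means of 6.37, 6.52 and 0.523 normalized counts in the 28.5-rad table, below the limit for a ratio. Among the receptors, 3 of 8 lay above the median ratio, which were raraa at 0.768, rarga at 0.695 and rarab at 0.690. The 5 RXR genes with a ratio lay between 0.609 and 0.639.

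The tissue was checked by listed markers. All 9 enterocyte markers measured had at least 10 normalized counts in the 28.5-rad table, from 642 for cdx1b to 137271 for apobb.1. All 7 exocrine pancreas markers, from 2935 to 83996 normalized counts, all 6 liver markers and all 4 smooth muscle markers were at or above 10 too. So were all 4 leukocyte and 3 enteroendocrine markers, and the 2 ovary, 1 erythrocyte and 1 goblet markers measured, but only 1 of 3 skeletal muscle markers. The ovary gene zp3b had 22.7 normalized counts in the 28.5-rad table and 44.4 in that of 18.5-mel, and buc had 21.5 and 17.2. Both lay above the all-gene median ratio of 0.640. The pooled libraries therefore held RNA of pancreas, liver, muscle wall and leukocytes besides the epithelium. A pooled mean does not show that each library did. The 2 ovary genes were near the skeletal muscle gene acta1b, at 21.0 in the 28.5-rad table, and erythrocytes rested on 1 gene. Ovary, skeletal muscle and erythrocytes are therefore not taken as shown.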

How the data were processed

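RNA from the GIT of adult zebrafish was sequenced by the authors. The paper names 2 sequencing facilities and 2 kinds of instrument, and does not say which library was run on which. Per their methods, FastQC served to check the reads, Cutadapt to trim them, STAR to align them to GRCz11 and HTSeq to count them. The authors used DESeq2 to set every treated group against 28.5-Ctrl. Versions, strand setting and covariates are not given in the sources used here. The 3 deposited tables hold the authors' fold changes, standard errors, test statistics and p-values, which were not used. The signal used is the mean of normalized counts that the authors deposited for each gene, pooled over the libraries of a fit. No read totals or values per sample were analysed here, so precision is given only as the weight of 1 read, which covers counting error only, and no test was run. Where a gene had 2 entries (1 gene in 2 tables), 1 was kept.

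A step was a lowest value shared by at least 10 genes within a tolerance of 1.5e-06 that is no sum of up to 4 reads of lower steps. Step finding was tested on simulated fits of 12 and 13 libraries. The genes that carry the steps of the 2 added libraries were planted in that simulation. Recovery of those 2 steps was thus set in advance and is no test of them. The least share of the 2 added libraries was checked in the simulated fits too, but that bound holds by construction, so the check could not fail. The bound for the library absent from the 18.5-mel table, and the comparison with the 18.5-mel-rad table, were not simulated. Ratios used genes with a mean of at least 10 in both tables. All 7 members are named, with the 5 other listed retinoid genes of highest mean expression and the detected paralogs of members. Other genes named, such as receptors, hydroxylases and liver markers, were chosen after their values were seen. The members and lists were chosen with earlier results of these data known. Alternatives were other scalings between tables and, for each gene's share of the summed mean expression, a sum without the 10 highest genes. Every member's share rises when those genes leave the sum, for bco1 in the 18.5-mel table from 0.0307% to 0.0403%. Python 3.11.15 with pandas 2.3.3 and numpy 2.4.6 was used.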

Additional observations from a re-analysis of the deposited data

How the results depend on the processing

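Scaling by the median ratio left 2 of the 7 genes (aldh1a2 and rbp2a) above 1. So did setting the sums of mean expression equal and the median over genes with at least 100 normalized counts in both tables. With equal sums rbp2a was only just above 1, at 1.001. The 7 include dhrs3a, which was too low for its ratio to be read. With no scaling 0 of the 7 lay above 1, and the median of all genes is then 0.640. Of 38 retinoid genes, members included, 9 lay above 1 after scaling by the median, 8 with equal sums, 14 with the median over genes of at least 100 and 0 with no scaling. The scaled ratios of the 7 genes ran from 0.852 to 1.09 with equal sums and from 0.912 to 1.16 with the median over genes of at least 100. The median ratio itself was 0.640, against 0.626 over the more abundant genes. No paired analysis was possible because the tables hold no value per sample, and no library could be left out. Percentiles and orders of levels between genes, protein identity and promoter motifs were not run, because lengths and sequences were not used here. Which libraries stand behind a pooled mean limits every value, as rbp2b shows.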

Other observations

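Rdh5, a retinol dehydrogenase of the listed pathway that was singled out after its values were seen, had a pooled mean of 23.4 normalized counts in the 18.5-mel table and 2.36 in the 28.5-rad table. If the shared libraries were counted alike, at least 93.7% of its mean in the 18.5-mel table came from the 2 libraries found there only. This share can stand for as few as 19 reads. Rbp4l, at 3.84 and 0.606 normalized counts in the same tables, can rest on as few as 3 such reads.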
